A study of Mus musculus with 12 samples.

Results

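The genes described here are 10 imprinted mouse genes grouped around Mest: Mest, Peg3, Peg10, Plagl1, Grb10, Ndn, Impact, Snrpn, Nnat and Dlk1. They were chosen by gene symbol, with the brightest transcript cluster standing for each gene, and 9 of the 10 had a cluster under their symbol among the 22206 transcript clusters measured, which held 19505 named genes. Each of the 9 had a single cluster, and Snrpn was not analysed here. The group was drawn up with earlier results of these arrays known. Mest, for which it is named, was already known to differ widely between the compounds on them, so its values are given as a description with no test. The other genes were listed as imprinted genes, also with those results known. The p-values printed for them come from a fit over all transcript clusters and are read as a description.

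RNA came from cultures of S100β-v-erbB/p53-/- TSC1 cells of the FVB-NJ strain, in which the S100β promoter drives the v-erbB oncogene and p53 is absent, and all groups share that genotype. One group was kept in hypoxia with brefeldin A (BFA), one in hypoxia with EHT-1864 (EHT), one in hypoxia with the solvent DMSO and one in normoxia with DMSO, each for 16 h. Brefeldin A blocks transport between the endoplasmic reticulum and the Golgi, and EHT-1864 inhibits Rac GTPases. EHT-1864 was used at 1 µM. The labels give 1 µM for BFA in the treatment text and 0.1 µM in the series title, so the BFA values belong to one of these doses. Every group held 3 Clarion S arrays, 12 in all, and the design text names 3 independent cultures of what is 1 cell model. Whether same-numbered arrays share a culture is not stated, so p-values measure the spread between arrays, part of which may be technical.

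An imprinted gene is expressed mainly from either the maternal or the paternal copy, because a methylation mark set in the egg or sperm is kept. The genes of this group are expressed from the paternal copy, except Grb10, which is maternal in most tissues and paternal in neurons. Many of them are high in the embryo and in progenitor cells, decline after birth, and act on growth. The arrays measure total RNA of a gene and do not tell the 2 parental copies apart.

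Promoter windows are shown for 3 members, to compare windows with and without the letters of the binding site of ZFP57, the zinc finger protein that keeps imprints. Mest and Nnat carry them and Peg3 does not. The sequences are RefSeq's, on GRCm38.p6, from 250 bases before to 50 bases after a transcription start, on the gene's strand. Capitals mark the hexamer TGCCGC or its reverse complement, which is how it reads here in both genes. Of the windows of Mest, one that held the most CpG is shown.
Nnat, chr2:157559828-157560127, plus strand: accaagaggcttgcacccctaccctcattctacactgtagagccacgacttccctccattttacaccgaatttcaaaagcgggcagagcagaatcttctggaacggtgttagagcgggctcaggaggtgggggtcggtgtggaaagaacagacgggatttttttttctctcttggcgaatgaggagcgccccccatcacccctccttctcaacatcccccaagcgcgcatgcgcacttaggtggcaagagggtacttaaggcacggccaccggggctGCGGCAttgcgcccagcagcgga
Mest, chr6:30737800-30738099, plus strand: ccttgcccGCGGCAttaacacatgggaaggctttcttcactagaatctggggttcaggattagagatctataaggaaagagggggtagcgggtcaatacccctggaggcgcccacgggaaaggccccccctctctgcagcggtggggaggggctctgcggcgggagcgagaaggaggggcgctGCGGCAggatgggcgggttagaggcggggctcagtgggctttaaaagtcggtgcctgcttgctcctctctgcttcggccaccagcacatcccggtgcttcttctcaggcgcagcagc
Peg3, chr7:6730370-6730669, minus strand: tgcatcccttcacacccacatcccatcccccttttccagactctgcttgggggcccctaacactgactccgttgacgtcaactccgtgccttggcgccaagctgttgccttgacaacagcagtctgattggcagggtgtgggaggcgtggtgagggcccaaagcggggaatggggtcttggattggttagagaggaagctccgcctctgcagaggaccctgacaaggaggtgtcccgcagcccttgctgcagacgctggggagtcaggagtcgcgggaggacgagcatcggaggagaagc
The hexamer began at base 278 of the Nnat window and at bases 9 and 184 of the Mest window, counted from the first base shown. Windows of 7 member genes were examined, 10 windows in all. The hexamer stood on either strand in 5 of these windows, belonging to 4 genes (Mest, Nnat, Plagl1 and Grb10). No window of Peg10, Snrpn or Impact was examined. The directions below therefore lack Peg10, which fell with BFA, and Impact, which rose. Among all 32851 promoter windows of the same length, 11.6% held the hexamer. The Mest windows with it start at 30737800 and 30737803 and overlap almost fully, so nearly the same bases are counted again. The Mest window starting at 30733256 held none. Member windows held 8 to 45 CpG, beside a median of 7 over all windows, and the part of CpG content in the count was not tested. Of the 4 genes with the hexamer, Mest, Nnat and Grb10 were lower with BFA, and Plagl1, close to the floor, was higher (log2 difference 0.78). Of those without it in their windows, Ndn was lower and Peg3 higher. Whether the letters bear on the direction was not tested. The core of the HIF site (ACGTG or GCGTG) stood in 5 of the 10 member windows, beside 43.8% of all windows, and those 5 belong to 5 genes. The cyclic AMP response element TGACGTCA stood in the Peg3 window, beside 1.79% of all. The ATF4 core TGATGNAA was in none of the 10 windows, beside 3.97% of all. In the Peg3 window the HIF core and the response element lay apart.

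Mest also holds a microRNA, miR-335, which is cut from a transcript of the gene. Its mature 5p form lies within Mest at chr6:30741314-30741336 on the plus strand of GRCm38.p6, and it is shown with its seed, bases 2 to 8, in capitals because it travels with the host gene's transcript.
mmu-miR-335-5p: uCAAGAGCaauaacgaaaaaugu
The mature microRNA was not measured on these arrays.

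Values below are signals on the log2 scale, and a difference of log2 signals is followed by ± its standard error from the fit, with 3 arrays in each group. A call means an adjusted p under 0.05 in limma, Benjamini-Hochberg adjusted over all 22206 transcript clusters. The floor of an array is the 95th percentile of its negative control probes, and a gene below it on all 3 arrays of a group has only a bound there, printed as "at least" so many fold. Different transcript clusters respond differently to the same amount of RNA, so levels are compared for 1 gene across groups and not between genes. Fewer cells of a kind and less RNA per cell cannot be told apart in such samples.

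Array-wide measures moved with the compounds. The floor was 6.37 to 6.65 with BFA, 5.88 to 6.15 with EHT, 5.60 to 5.64 in hypoxia with DMSO and 5.59 to 5.64 in normoxia. The share of transcript clusters below the floor averaged 65.2% with BFA, 57.6% with EHT, 51.7% in hypoxia with DMSO and 52.1% in normoxia. Hybridization control probes, which detect RNA added to the mix and none from the cells, averaged 10.93 ± 0.12 (SD, n = 3) with BFA, 10.25 ± 0.07 with EHT, 9.76 ± 0.06 in hypoxia with DMSO and 9.85 ± 0.06 in normoxia. Of 9 glial progenitor markers, 8 were measured and all 8 lay above the floor on every array, while 5 of 5 microglial and 4 of 4 endothelial markers lay below it in every group. The mean log2 signal of the 8 glial progenitor markers was 8.15 to 8.19 on the BFA arrays, 9.50 to 9.64 on the EHT arrays, 10.53 to 10.58 in hypoxia with DMSO and 10.51 to 10.63 in normoxia. Against DMSO in hypoxia, 7 of the 8 were called lower with BFA and 7 with EHT. Of all transcript clusters, 24.6% were called lower with BFA and 17.4% with EHT, and of the brighter ones described below 44.2% and 30.6%. Olig2, which defines the oligodendrocyte lineage, averaged 8.10 with BFA, 9.08 with EHT, 11.44 in hypoxia with DMSO and 11.63 in normoxia. These shifts accompany every BFA and EHT result below, and their part in the results was not tested.

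Mest separated the compounds more than any other member did. It encodes a protein of the alpha/beta hydrolase fold family that is high in embryonic mesoderm and in expanding fat tissue. Its log2 signal was 6.62, 7.63 and 7.58 with BFA, 11.60, 11.01 and 11.32 with EHT, 9.66, 9.63 and 9.70 in hypoxia with DMSO, and 9.57, 9.66 and 9.59 in normoxia with DMSO. All EHT arrays lay above, and all BFA arrays below, all 6 DMSO arrays, which overlapped each other between hypoxia and normoxia. One BFA array, the lowest, lay under its floor. The BFA mean was 2.39 ± 0.23 below that of hypoxia with DMSO on the log2 scale (a log2 difference of -2.39, 5.23-fold lower), and the EHT mean was 1.65 ± 0.23 above it (3.14-fold higher). BFA lay 16.4-fold below EHT (log2 difference -4.03 ± 0.23), which ranked 2 from the bottom among 22206 transcript clusters. Only Scg2, the secretory granule protein secretogranin II, lay lower in that comparison, at -4.40. Hypoxia differed from normoxia by 0.05 ± 0.23. From high to low the groups ran EHT, hypoxia with DMSO, normoxia with DMSO and BFA, and the DMSO groups did not differ beyond their spread.

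**Figure D1:**
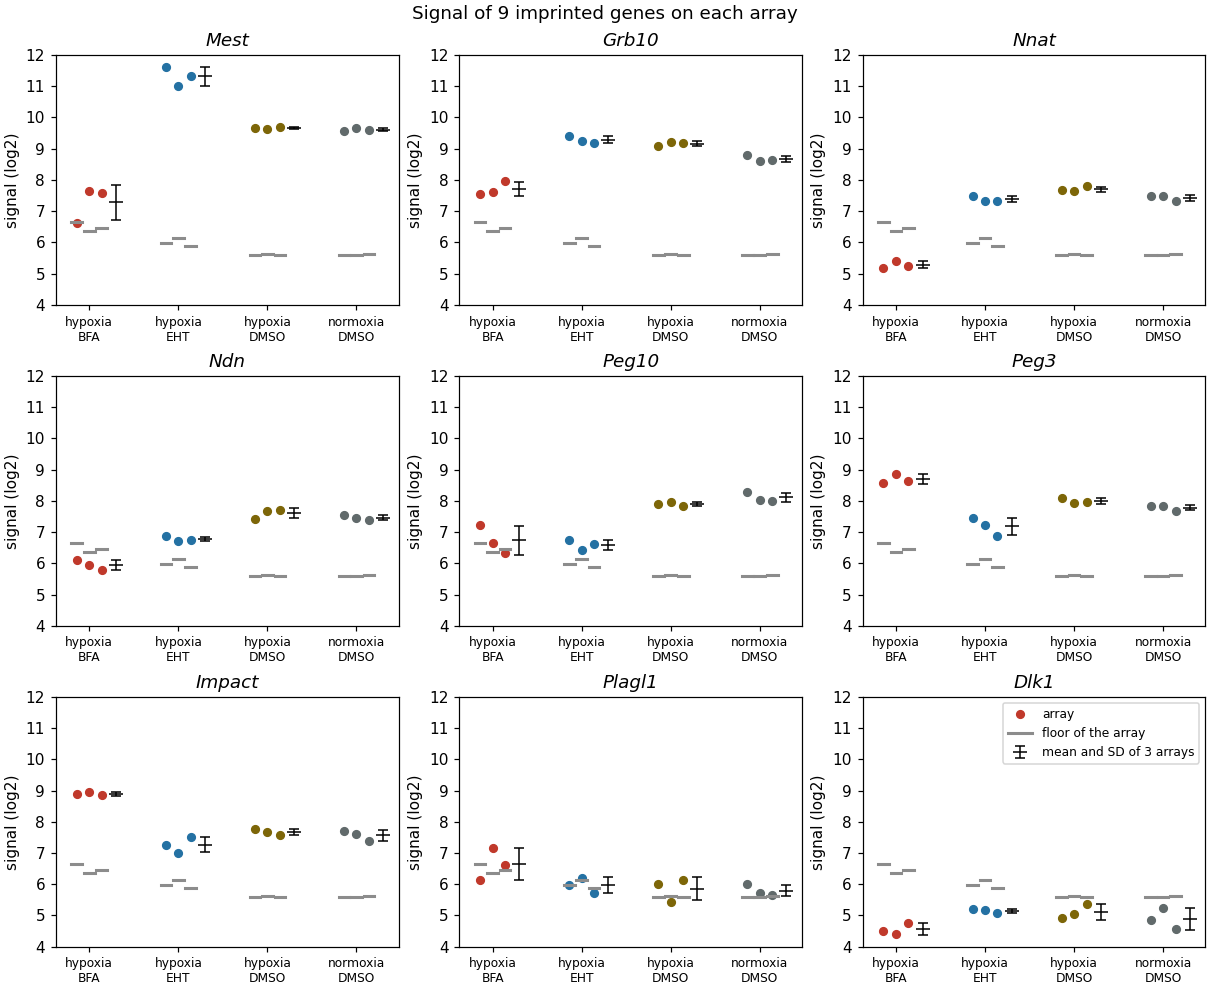
Log2 signal (y axis) of the 9 measured genes on each of the 12 arrays (points), by group (x axis), with the mean and SD of 3 arrays beside them and a grey line at the floor of each array. Mest is highest with EHT (11.01 to 11.60) and lowest with BFA (6.62 to 7.63), Peg3 and Impact are highest with BFA, and Dlk1 lies below the floor on all 12 arrays.

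Members that fell with BFA included 2 that dropped under the floor. Nnat encodes neuronatin, a small membrane protein of the endoplasmic reticulum that bears on calcium stores and is high in the developing brain. It gave 5.19, 5.42 and 5.25 with BFA, all under the floor, against 7.50, 7.33 and 7.32 with EHT, 7.67, 7.63 and 7.79 in hypoxia with DMSO and 7.47, 7.47 and 7.32 in normoxia. The BFA arrays stood apart from the other 9, which lay within 7.32 to 7.79. Nnat was at least 2.31-fold lower with BFA than with DMSO in hypoxia (limma adjusted p = 9.30e-09) and at least 1.86-fold lower with BFA than with EHT (adjusted p = 4.72e-08). With EHT its log2 difference from DMSO was -0.31 ± 0.12 and missed the threshold (adjusted p = 0.0569).

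Ndn encodes necdin, a MAGE family protein that restrains cell growth and is best known in neurons. Its log2 signal was 6.11, 5.95 and 5.78 with BFA, all under the floor, 6.87, 6.73 and 6.75 with EHT, 7.43, 7.68 and 7.72 in hypoxia with DMSO, and 7.56, 7.44 and 7.39 in normoxia. Both compounds lay below all DMSO arrays without overlap, and BFA lay below EHT. Against DMSO in hypoxia, Ndn fell at least 2.17-fold with BFA (limma adjusted p = 3.96e-07) and by 0.83 ± 0.13 on the log2 scale with EHT (1.78-fold, adjusted p = 3.89e-04). It was at least 1.22-fold lower with BFA than with EHT (adjusted p = 1.79e-04).

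Grb10 encodes an adaptor that binds the insulin and IGF1 receptors and dampens their signal. It measured 7.55, 7.63 and 7.96 with BFA, 9.41, 9.26 and 9.18 with EHT, 9.09, 9.21 and 9.19 in hypoxia with DMSO, and 8.79, 8.60 and 8.63 in normoxia. BFA was lowest on all 3 arrays, and the EHT arrays overlapped those of hypoxia with DMSO. Grb10 fell by 1.45 ± 0.13 with BFA against DMSO (2.73-fold, limma adjusted p = 1.77e-06) and lay 2.97-fold below EHT (adjusted p = 1.19e-06), while EHT differed from DMSO by 0.12 ± 0.13 (adjusted p = 0.529). The 3 arrays of hypoxia with DMSO all lay above the 3 of normoxia, a log2 difference of 0.49 ± 0.13 that missed the threshold (adjusted p = 0.0715).

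Peg10 fell with both compounds. It derives from a retrotransposon and is required for the placenta. It gave 7.24, 6.65 and 6.33 with BFA, where 2 of 3 arrays were above the floor, against 6.74, 6.42 and 6.61 with EHT, 7.91, 7.95 and 7.83 in hypoxia with DMSO, and 8.28, 8.04 and 8.002 in normoxia. The compound groups overlapped each other and lay below all DMSO arrays. Peg10 fell by 1.15 ± 0.19 with BFA (2.23-fold, limma adjusted p = 2.95e-04) and by 1.31 ± 0.19 with EHT (2.47-fold, adjusted p = 2.83e-04). BFA minus EHT was 0.15 ± 0.19 (limma adjusted p = 0.575). The sign of that difference turned under 2 of 20 other settings, several of which cannot change a difference.

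Peg3 and Impact went in opposite directions with the compounds. Peg3 encodes a large zinc finger protein that takes part in p53-linked cell death and in maternal behaviour. It measured 8.57, 8.87 and 8.63 with BFA, 7.44, 7.22 and 6.88 with EHT, 8.10, 7.92 and 7.96 in hypoxia with DMSO, and 7.83, 7.83 and 7.68 in normoxia. All BFA arrays lay above, and all EHT arrays below, all 6 DMSO arrays. Peg3 rose by 0.70 ± 0.15 with BFA (1.62-fold, limma adjusted p = 0.00187) and fell by 0.81 ± 0.15 with EHT (1.76-fold, adjusted p = 0.00135). BFA exceeded EHT by 1.51 ± 0.15 (2.85-fold, adjusted p = 4.66e-06), the reverse of the order of Mest.

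Impact encodes a protein that binds GCN1 and so inhibits GCN2, the kinase that senses uncharged tRNA. It gave 8.88, 8.96 and 8.85 with BFA, 7.27, 7.02 and 7.52 with EHT, 7.78, 7.66 and 7.59 in hypoxia with DMSO, and 7.70, 7.62 and 7.37 in normoxia. BFA stood above the other 9 arrays, and the EHT arrays overlapped normoxia. Impact rose by 1.22 ± 0.14 with BFA (2.33-fold, limma adjusted p = 1.61e-05) and lay 3.09-fold above EHT (adjusted p = 1.71e-06). The fall with EHT, of 0.40 ± 0.14, was near the threshold (adjusted p = 0.0470) and did not pass under 13 of 20 other settings, with adjusted p-values up to 0.306.

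Plagl1, a zinc finger transcription factor that controls other imprinted genes and restrains growth, was close to the floor. Its log2 signal was 6.14, 7.16 and 6.61 with BFA, 5.97, 6.22 and 5.73 with EHT, 6.02, 5.44 and 6.13 in hypoxia with DMSO, and 5.99, 5.72 and 5.67 in normoxia, and the numbers of arrays above the floor were 2, 1, 2 and 3. The groups lay close together, with the BFA arrays above those of hypoxia with DMSO. It rose by 0.78 ± 0.24 with BFA against DMSO (1.72-fold, limma adjusted p = 0.0179). That call was lost under 3 of 20 other settings, with adjusted p-values up to 0.0835. The floor itself was 5.60 to 5.64 in hypoxia with DMSO and 6.37 to 6.65 with BFA, and its part in the rise was not tested. For Plagl1, BFA minus EHT was 0.67 ± 0.24 (limma adjusted p = 0.0479), a call lost under 10 of 20 settings with adjusted p-values up to 0.182. Dlk1, a transmembrane protein of the Notch ligand kind that holds back differentiation, was under the floor on all 12 arrays, at 4.40 to 4.76 with BFA, 5.09 to 5.20 with EHT, 4.91 to 5.38 in hypoxia with DMSO and 4.57 to 5.25 in normoxia, and no fold is given for it.

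Counts are given over 7 genes, without Mest, which has no test here, and without Dlk1, which was under the floor throughout. Hypoxia against normoxia gave 0 calls in limma, 2 at an unadjusted p under 0.05 (Grb10 and Nnat), where 2.67% of all transcript clusters were called (2.11% higher, 0.563% lower). Under other settings in limma this count was at most 1 (Grb10). BFA against DMSO gave 3 calls higher and 4 lower, where 50.7% of all were called (26.1% higher, 24.6% lower). EHT against DMSO gave 0 calls higher and 4 lower, beside 30.5% of all (13% higher, 17.4% lower). BFA against EHT gave 3 calls higher and 3 lower, beside 36.5% (16.9% higher, 19.6% lower).

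Over the whole array many dim transcript clusters were called higher with the compounds. Among the 9806 whose mean over all 12 arrays lay above the mean floor, 17.7% were called higher and 44.2% lower with BFA, 14.7% higher and 30.6% lower with EHT, and 20.4% higher and 36.8% lower with BFA than with EHT, so falls outnumbered rises among the brighter ones in general. All 7 genes are in that brighter set. Their median log2 difference was 0.15 for hypoxia, -1.15 for BFA, -0.40 for EHT and 0.15 for BFA against EHT, beside -0.0046, -0.27, -0.12 and -0.15 over the brighter transcript clusters and -0.03, 0.11, 0.06 and 0.06 over all. The BFA and EHT comparisons against DMSO share the same 3 DMSO arrays, so each gene's values are set side by side here and no overlap is drawn from them.

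**Figure D2:**
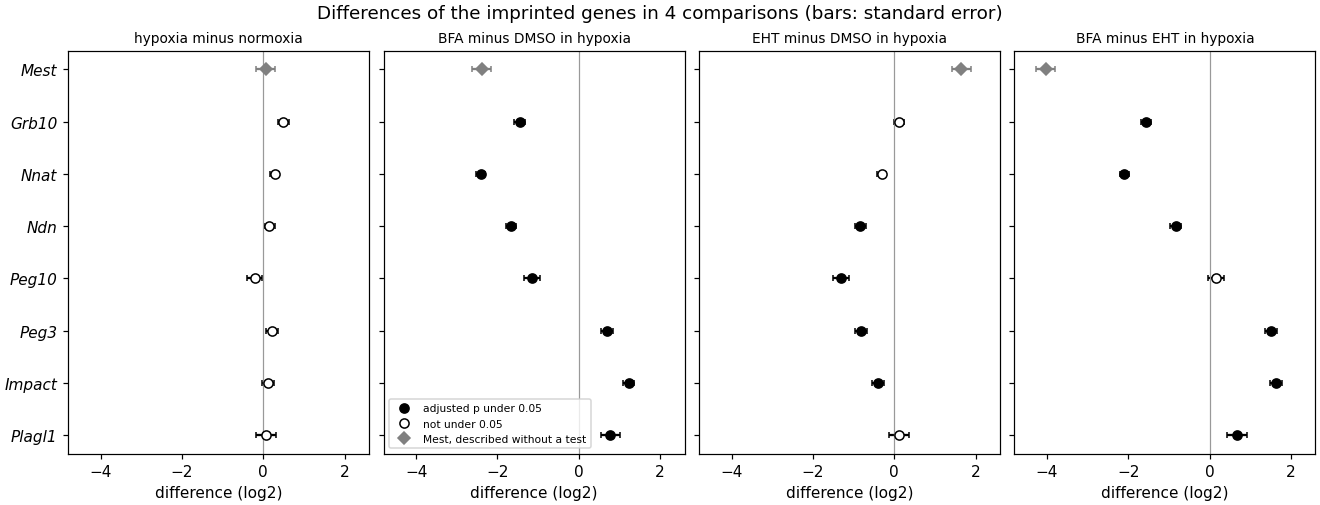
Log2 differences with standard errors (x axis) of the 8 genes that were above the floor somewhere (y axis), in 4 comparisons; filled points have an adjusted p under 0.05, open points do not, and Mest is drawn as a grey diamond with no test. Nnat and Ndn are drawn at their measured difference although all BFA arrays lay under the floor. With BFA 5 of the 8 lie left of 0 and 3 right, and Mest lies at 1.65 with EHT and at -2.39 with BFA.

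Neighbours at the same imprinted loci were set beside the members. Of 16 neighbours listed, 13 were measured (Hymai, Meg3 and Rtl1 were not analysed here). Klf14, Zim1, Asb4, Magel2, Mkrn3 and Dio3 were below the floor in every group, and Usp29 was above it on 1 normoxia array alone. BFA raised 1 and lowered 5 of the 13, EHT lowered 2, BFA lay above EHT for 1 and below it for 2, and hypoxia raised 1, with median log2 differences of -0.16, -0.21, -0.17 and 0.03 in that order. The shares called were 46.2%, 15.4%, 23.1% and 7.69% in that order, beside 50.7%, 30.5%, 36.5% and 2.67% of all transcript clusters. Usp29 is among the falls with BFA, although it was below the floor on all arrays of both groups compared. Only 5 of the 13 were in the brighter set. Copg2, a coat protein gene next to Mest, averaged 8.48 with BFA, 8.82 with EHT, 8.97 in hypoxia with DMSO and 8.76 in normoxia. It fell by 0.49 ± 0.17 with BFA (limma adjusted p = 0.0273), and its log2 difference with EHT was -0.15 ± 0.17 (adjusted p = 0.543), where Mest differed by 1.65. Sgce, a sarcoglycan gene that shares its promoter region with Peg10, fell with both compounds, by 1.00 ± 0.14 with BFA (adjusted p = 7.34e-05) and by 0.48 ± 0.14 with EHT (adjusted p = 0.0206). In hypoxia against normoxia Sgce rose by 0.63 ± 0.14 (adjusted p = 0.0306), where Peg10 differed by -0.21 ± 0.19 (adjusted p = 0.659).

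Cobl and Ddc lie beside Grb10. Cobl, an actin nucleator, fell by 1.41 ± 0.11 with BFA (limma adjusted p = 6.50e-07) and lay 1.13 ± 0.11 below EHT on the log2 scale, a log2 difference of -1.13 (adjusted p = 5.73e-06). Its EHT and hypoxia differences, -0.28 ± 0.11 and 0.44 ± 0.11, missed the threshold (adjusted p = 0.0768 and 0.0649). Ddc, the decarboxylase of dopamine synthesis, was under the floor on all BFA arrays, where the floor lay above its level in hypoxia with DMSO (5.89), so no fold is given. Blcap, within whose intron Nnat lies, rose by 0.57 ± 0.13 with BFA (adjusted p = 0.00342), while Nnat dropped under the floor. Ube3a, the ubiquitin ligase of the region that holds Ndn, averaged 8.41 with BFA, 8.35 with EHT, 8.57 in hypoxia with DMSO and 8.45 in normoxia, and passed the threshold in no comparison.

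A wider list of 77 imprinted genes, drawn up apart from the 10, had 62 measured genes. It includes the 16 locus neighbours, so the 13 measured neighbours described above are counted again here. Of the 62, 29 were in the brighter set. With BFA 5 of the 29 rose and 17 fell, with EHT 3 rose and 9 fell, 4 were higher and 14 lower with BFA than with EHT, and in hypoxia 1 rose. Their median log2 differences were -0.76 with BFA, -0.22 with EHT, -0.45 between the compounds and 0.10 in hypoxia, against the tilt of the brighter transcript clusters given above. Over all 62, dim genes included, the calls were 15 higher and 21 lower with BFA, 8 and 11 with EHT, 6 and 15 between the compounds, and 2 and 0 in hypoxia, where 6 had an unadjusted p under 0.05 in limma. The shares called were 58.1%, 30.6%, 33.9% and 3.23% in the same order, beside 50.7%, 30.5%, 36.5% and 2.67% of all transcript clusters. The medians over all 62 were 0.04, -0.06, 0.01 and 0.00 in that order. The 2 calls in hypoxia were Sgce, above, and Ascl2, a transcription factor of the placenta that was above the floor on 1 of 3 hypoxia arrays and no normoxia array, and is named after its value was seen. A number of the genes on this list are imprinted in placenta or brain alone.

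Inpp5f, a phosphoinositide phosphatase, fell by 2.85 ± 0.16 with BFA (limma adjusted p = 3.70e-08), to 6.41 ± 0.35 with BFA against 9.25 ± 0.14 with DMSO (SD, n = 3), with 1 BFA array above the floor. Ampd3, an AMP deaminase, fell with both compounds, by 2.69 ± 0.26 with BFA (adjusted p = 3.24e-06) and by 2.04 ± 0.26 with EHT (adjusted p = 1.02e-04). Dhcr7, the last enzyme of cholesterol synthesis, fell by 2.19 ± 0.17 with BFA and by 1.01 ± 0.17 with EHT. Gatm, which makes the precursor of creatine, fell by 2.05 ± 0.21 with BFA. With EHT, Nap1l5, a nucleosome assembly protein, fell by 1.07 ± 0.20 and H13, the signal peptide peptidase, by 0.89 ± 0.13.

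Genes of the wider list that rose with BFA included Rasgrf1, an exchange factor for Ras, by 1.17 ± 0.19 (limma adjusted p = 2.70e-04), Tssc4 by 1.03 ± 0.12 and Pon2, a paraoxonase, by 0.60 ± 0.11. The largest rise with BFA on the list was that of Tnfrsf23, at least 2.67-fold against DMSO (limma adjusted p = 1.04e-04). Tnfrsf23 was above the floor on 2 BFA arrays and on no array of the other groups, and is named after its value was seen. Rasgrf1 also rose with EHT, by 0.71 ± 0.19 (adjusted p = 0.0145), as did Gab1, an adaptor of receptor tyrosine kinases, by 0.57 ± 0.14, and Mcts2 by 0.52 ± 0.15. Between the compounds, Tssc4 was higher with BFA than with EHT by 1.58 ± 0.12, Blcap by 0.78 ± 0.13 and H13 by 0.76 ± 0.13, and Pon2 was at least 1.62-fold higher. Gab1 averaged 7.50 ± 0.23 with BFA and 9.54 ± 0.11 with EHT, a log2 difference of -2.04 ± 0.14 (adjusted p = 1.89e-07) with the same sign as that of Mest. Inpp5f and Gatm were lower with BFA than with EHT by log2 differences of -2.16 ± 0.16 and -1.45 ± 0.21, and the survival gene Bcl2l1 was at least 1.58-fold lower (adjusted p = 3.80e-05).

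**Figure D3:**
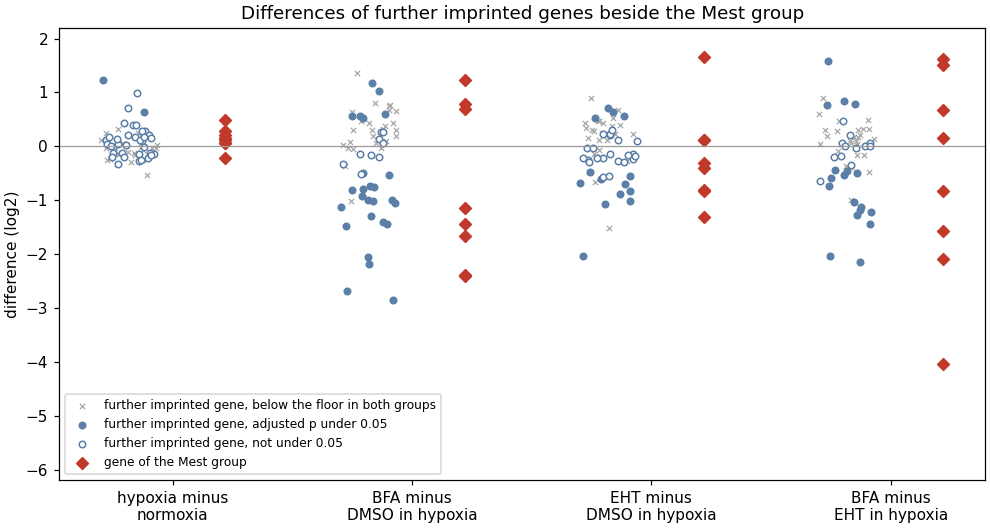
Log2 differences (y axis) in 4 comparisons (x axis) for the 62 further imprinted genes (circles and crosses) and the 8 members with a fold (diamonds); filled circles have an adjusted p under 0.05, open circles do not, and crosses were below the floor in both groups. Tnfrsf23, at 2.27 in BFA minus DMSO, lies beyond the top of the axis there and in BFA minus EHT, and is not seen in those comparisons. The diamond at -4.03 in BFA minus EHT is Mest, which lies below every further imprinted gene there.

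Genes that keep or erase imprints fell more often than they rose with the compounds. So did brighter transcript clusters in general, with lower shares of falls. All 17 listed were measured, and BFA raised 1 and lowered 10, EHT raised none and lowered 8, BFA lay above EHT for 2 and below it for 6, and hypoxia raised 1. The shares called were 64.7% with BFA, 47.1% with EHT, 47.1% between the compounds and 5.88% in hypoxia. Over all transcript clusters they were 50.7%, 30.5%, 36.5% and 2.67%. Of the 17, 11 were in the brighter set, where 1 rose and 9 fell with BFA and 0 rose and 6 fell with EHT. Falls made up 81.8% of the 11 with BFA and 54.5% with EHT, beside 44.2% and 30.6% of the brighter transcript clusters. The 11 had median log2 differences of -0.72 with BFA, -0.37 with EHT, 0.06 between the compounds and -0.05 in hypoxia. Uhrf1, which brings the maintenance methylase to replicating DNA, averaged 6.64 ± 0.31 with BFA, above the floor on 1 array, 8.88 ± 0.33 with EHT, 8.85 ± 0.12 in hypoxia with DMSO and 9.29 ± 0.17 in normoxia (SD, n = 3). Its log2 differences were -2.21 ± 0.19 with BFA against DMSO (limma adjusted p = 1.05e-06) and -2.24 ± 0.19 against EHT (adjusted p = 1.27e-06). Tet1, an enzyme that oxidises methylated cytosine, rose by 1.41 ± 0.19 in hypoxia (adjusted p = 0.00102), was at least 2.68-fold lower with BFA than with DMSO in hypoxia (adjusted p = 1.23e-06) and fell by 1.50 ± 0.19 with EHT (adjusted p = 9.87e-05). Zfp445, a zinc finger protein that acts beside ZFP57 at imprints, fell by 1.34 ± 0.17 with EHT (adjusted p = 8.46e-05), and Setdb1, a histone methylase, by 0.57 ± 0.12 (adjusted p = 0.00291). Ctcf, the insulator protein, fell by 1.17 ± 0.11 with BFA and lay below EHT by a log2 difference of -0.81 ± 0.11. Hells, a chromatin remodeller, was under the floor on all BFA arrays and above it on 1 EHT array, and the BFA floor lay above its EHT mean (5.81), so no fold is given. DNA methylation was not measured.

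Partners of the member proteins changed in both directions, and 15 of 18 listed were measured. BFA raised 3 and lowered 8, EHT raised 1 and lowered 4, BFA lay above EHT for 3 and below it for 6, and hypoxia raised 2 and lowered 1. The shares called were 73.3%, 33.3%, 60% and 20% in that order. Over all transcript clusters they were 50.7%, 30.5%, 36.5% and 2.67%, so the EHT share was near that of all. In the brighter set, which held 14 of the 15, the median log2 differences were -0.58 with BFA, -0.11 with EHT, -0.20 between the compounds and 0.13 in hypoxia. The insulin receptor gene Insr, whose product Grb10 inhibits, averaged 9.78 ± 0.09 with BFA, 8.57 ± 0.17 with EHT, 9.25 ± 0.07 in hypoxia with DMSO and 8.74 ± 0.19 in normoxia. It fell by 0.68 ± 0.13 with EHT (limma adjusted p = 0.00196) and lay 1.22 ± 0.13 higher with BFA than with EHT (adjusted p = 1.01e-05). Irs2, a substrate of that receptor, fell by 0.98 ± 0.14 with EHT (adjusted p = 2.86e-04). Atf4, which is translated when GCN2 and related kinases are active, rose by 0.72 ± 0.12 in hypoxia (adjusted p = 0.00514) and by a further 1.09 ± 0.12 with BFA (adjusted p = 8.64e-06), and exceeded EHT by 0.94 ± 0.12. Its target Trib3 rose by 1.88 ± 0.20 in hypoxia (adjusted p = 1.40e-04), where Impact differed by 0.11 ± 0.14. Lrp6, a Wnt co-receptor whose glycosylation Mest bears on, fell by 0.98 ± 0.14 with BFA (adjusted p = 6.94e-05). Snrpd1, a core spliceosome protein, fell by 0.56 ± 0.14 in hypoxia (adjusted p = 0.0493) and by 0.80 ± 0.14 with BFA, rose by 0.69 ± 0.14 with EHT, and was lower with BFA than with EHT by a log2 difference of -1.50 ± 0.14.

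Likeness in pattern was measured as the root mean square difference of the 4 group means after each gene was centred on its own mean, among 9557 named genes above the floor on all 3 arrays of at least 1 group. The 5 genes most like Mest were Epha3 (0.301), Slc6a15 (0.431), Arhgap6 (0.464), Slain1 (0.464) and Sik1 (0.523). Epha3, an ephrin receptor, averaged 4.01 with BFA, 7.36 with EHT, 5.67 in hypoxia with DMSO and 6.05 in normoxia. Epha3, Slc6a15 and Sik1 were under the floor on all BFA arrays, and Arhgap6 and Slain1 were above it on 1 of 3, so the BFA part of these distances, and with it their order, rests on values not above background. None of the 9 members was among these 5. Peg3 had closer likenesses, in Osbp (0.024), Sec22a (0.025), Csgalnact2 (0.033), Ufm1 (0.039) and Spryd3 (0.043). Osbp, an oxysterol binding protein, averaged 8.68 with BFA, 7.22 with EHT, 8.01 in hypoxia with DMSO and 7.84 in normoxia. The genes were picked for this likeness, so it is a description over 4 group means.

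**Figure D4:**
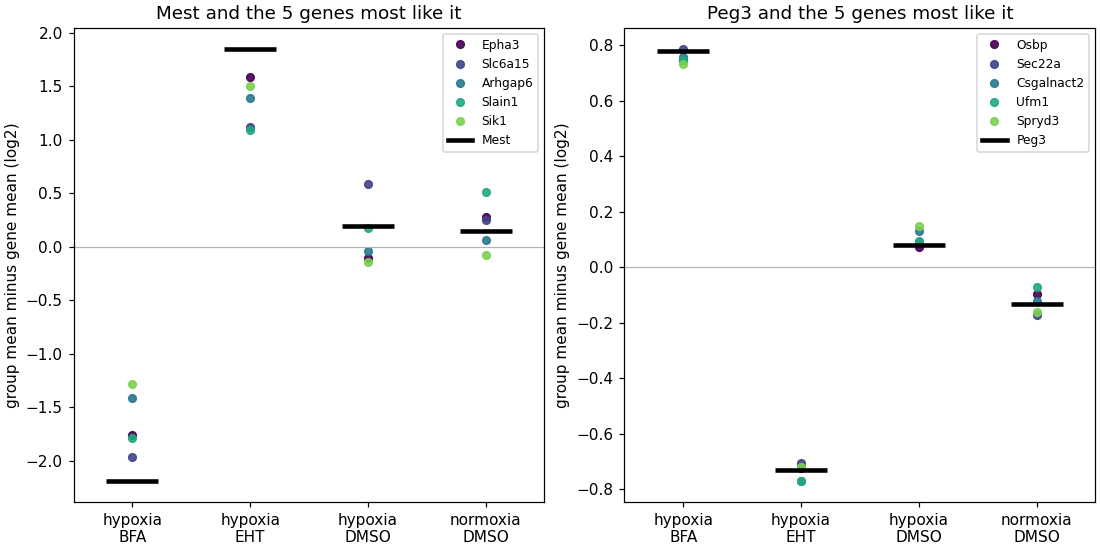
Group means on the log2 scale minus the gene's own mean of the 4 groups (y axis) by group (x axis), for Mest and the 5 genes most like it (left) and for Peg3 and the 5 most like it (right); black bars mark Mest and Peg3 and points mark the other genes. On the left, 3 of the 5 other genes were under the floor on all BFA arrays. Mest lies at -2.19 with BFA and 1.85 with EHT, and Peg3 lies at 0.78 with BFA and -0.73 with EHT, close to its 5 genes.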

How the data were processed

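Total RNA of 12 samples (4 groups of 3) was hybridised to 1-colour Clarion S mouse arrays. The values deposited by the authors are on the log2 scale, 1 per transcript cluster and array. RMA and Affymetrix Expression Console are the tools in the submitters' processing notes, and RMA corrects background, equalises the distributions of the arrays and summarises probes. Such values cannot show whether a whole cell held more or less RNA. Versions, settings and genome build are not given in the sources used here. Of 28846 rows, 6640 were controls and were left out, and 22206 transcript clusters were tested, dim ones included. The floor of an array was the 95th percentile of its 5222 negative control probes, and the number of arrays limits the precision.

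Symbols came from the platform annotation, updated by Entrez number through a RefSeq table of GRCm38.p6. Of the transcript clusters, 19572 had 1 symbol (19572 matched), 0 several and 2634 none. The 4 groups were taken from the labels and fitted together in limma 3.58.1 under R 4.3.3 (lmFit and eBayes, residual df 8, prior df 4.87), with Benjamini-Hochberg adjustment over all 22206 and a threshold of 0.05. A bound sets the mean of the brighter group against the mean, over the dim group's arrays, of whichever was higher, floor or measured signal. The fit was tested on simulated data. No arrays held identical values. The brighter set, with a mean over all 12 arrays above the mean floor, was defined after seeing the data. No bound is given where the floor of the dim group lies beyond the other group's mean.

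The members and gene lists were chosen with earlier results of these data known. Genes named are the 10 members, their 16 locus neighbours, up to 4 rises and 4 falls per comparison among 77 further imprinted genes, up to 3 per comparison among imprint maintenance genes and partners, and the 5 most like Mest and Peg3; markers were listed for neurons, fibroblasts or pericytes, microglia, endothelium, adipocytes and trophoblast besides glial progenitors. Of 8 neuronal markers 5 were below the floor in all groups, as were 4 of 6 fibroblast or pericyte markers and the 1 trophoblast marker measured, and 3 of 4 adipocyte markers in every DMSO and EHT group and all 4 with BFA. Alternatives were quantile normalization, median subtraction, 2 filters on dim probes, a trended robust variance, array weights, a fit of the 6 arrays compared, the replicate number as a block, and each array left out. Same-numbered arrays deviated together in 1 of 18 pairs (correlation over 0.1; range -0.18 to 0.17), so the numbers were not taken to pair samples.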

Additional observations from a re-analysis of the deposited data

How the results depend on the processing

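With 20 alternatives for each result, the BFA differences from DMSO of Nnat, Ndn, Grb10, Peg10, Impact and Peg3 kept direction and call under all 20, and Mest ranged from -2.56 to -2.06 with BFA, 1.50 to 1.80 with EHT and -4.21 to -3.71 between the compounds. Filters on dim probes, a trended variance, the fit of 6 arrays and the replicate block cannot change a difference. Leaving out an array of a group not compared cannot either. Under these the direction was fixed and only a call could change. Signs turned for 2 weak genes. Peg10 between BFA and EHT was -0.051 under array weights and ran from -0.097 (without BFA array 1) to 0.36 with an array left out. Plagl1 with EHT was -0.10 without hypoxia DMSO array 2 and -0.010 without EHT array 2, and otherwise reached 0.25 with an array left out. Its hypoxia difference was -0.013 and -0.069 without hypoxia DMSO arrays 1 and 3, and reached 0.28 without array 2 of that group. The cause was not tested. In limma, Grb10 passed in hypoxia under 7 alternatives (adjusted p 0.00707 to 0.241 over all 20), so that 1 member was called under the floor filter, under array weights, without the dimmest 25%, in the fit of 6 arrays and under the trended variance, and 0 to 1 when an array was left out. Nnat with EHT passed under 5 (adjusted p 0.0179 to 0.557). All calls in hypoxia numbered 593, and 1247 under the floor filter, 2258 under array weights, 1234 in the fit of 6 arrays, 1221 under the trended variance, and 254 to 898 with an array left out (898 without BFA array 1, and 254 to 315 without 1 of the 6 DMSO arrays). Calls with BFA fell to 7423 under the floor filter, which tests fewer genes. Further imprinted genes called in hypoxia ranged from 0 to 6. With the replicate number as a block, calls were 442 in hypoxia, 10938 with BFA, 6349 with EHT and 7816 between the compounds. The block removed the calls of Impact with EHT (adjusted p = 0.0692) and of Plagl1 between the compounds (adjusted p = 0.0723), and changed no other call among the members. The mean over several transcript clusters gave nothing, because each member had 1. Signal over background limits Plagl1, Ndn, Nnat and Dlk1, and Peg10 and Mest on 1 BFA array each.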
